A study of Mus musculus with 6 samples.

Results

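The VEGF and angiopoietin genes were examined in brain cells taken after stroke. The genes were chosen by name, and the set held 10 of the 32285 genes of the count matrix. It had 5 ligand genes (*Vegfa*, *Vegfb*, *Vegfc*, *Angpt1* and *Angpt2*) and 5 receptor genes (*Flt1*, *Kdr*, *Nrp1*, *Tek* and *Tie1*), each found once in the matrix. The cells came from male RGS5::GFP het mice aged 8 to 12 weeks, in which 1 allele of *Rgs5* is replaced by GFP in every group. The middle cerebral artery had been occluded permanently, and cortex was taken from the stroke side (IPSI) or from the matching area of the other hemisphere (Contra) at 1, 12 or 24 h. Each of the 6 groups was 1 library of sorted live cells depleted of neurons, and the methods name 3 mice in all, so that libraries may share animals. The matrix holds the libraries under the numbers 1 to 6, and no source used here says which group a number stands for. Values are therefore given per numbered library, none is assigned to a hemisphere or a timepoint, and no test between groups was possible. Group, animals, library preparation and sequencing machine cannot be told apart in any difference between libraries.

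VEGF ligands act on receptor tyrosine kinases of endothelial cells. VEGFA binds FLT1 and KDR, of which KDR carries most of the signal for growth and permeability and FLT1 binds the ligand tightly and can limit its supply, while neuropilin 1 (*Nrp1*) is a co-receptor. VEGFB binds FLT1, and VEGFC acts through FLT4 and, after cleavage, through KDR. In the angiopoietin pathway, ANGPT1 from cells around the vessel activates the receptor TIE2 (*Tek*) and keeps vessels quiet, ANGPT2 is released by endothelial cells and often opposes it, and TIE1 is a related receptor that modulates TIE2.

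After filtering, 17357 cells remained, between 1221 and 5873 per library. A cell had a median of 5338 UMIs, where each UMI stands for 1 RNA molecule caught from the cell, and the medians of the libraries ranged from 5053 to 5660.5. Of the cells, 316 (1.82%) were called doublets and 26 barcodes occurred in more than 1 library. Clusters were named from marker genes, with the ending -like because the names were rebuilt here. The classes were 8129 microglia-like, 2800 oligodendrocyte-like, 2745 endothelial-like, 1170 astrocyte-like, 872 pericyte-like, 374 monocyte-derived macrophage-like, 338 neuroblast-like, 259 perivascular macrophage-like, 256 smooth muscle-like, 179 neutrophil-like, 95 T lymphocyte-like and 55 B lymphocyte-like cells. A further 31 fibroblast-like and 22 choroid plexus-like cells were too few to be ranked, and 32 cells, mostly doublets, were left unnamed. Among the leading genes of the perivascular macrophage-like cluster were *Cd209a* and *Ccr7*, genes of dendritic cells, beside the macrophage gene *Mrc1*. None of the 10 genes was used for clustering or naming. Levels are given as CPM, the count of a gene scaled to the total UMIs of the cells of a class, with 95% intervals (exact Poisson for a level, exact conditional for a ratio, Clopper-Pearson for a share), which cover counting error only.

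The region before the start of *Flt1*, *Kdr* and *Tek* is shown because these receptor genes shared the same cell class in the results that follow. The capitals mark GGAA on either strand (TTCC as printed), the core that ETS factors bind, which are regulators of endothelial genes. The stretches run 5′ to 3′ on the strand of the gene, end where the gene begins, and come from RefSeq promoter windows of GRCm38.p6. They lie at chr5:147726012-147726261 (minus strand) for *Flt1*, chr5:75978459-75978705 (minus strand) for *Kdr* and chr4:94739039-94739288 (plus strand) for *Tek*.
Flt1: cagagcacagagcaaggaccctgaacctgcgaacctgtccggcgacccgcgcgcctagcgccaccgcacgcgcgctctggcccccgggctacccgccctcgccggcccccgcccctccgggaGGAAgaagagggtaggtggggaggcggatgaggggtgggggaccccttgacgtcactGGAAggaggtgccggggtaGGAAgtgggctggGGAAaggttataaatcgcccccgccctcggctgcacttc
Kdr: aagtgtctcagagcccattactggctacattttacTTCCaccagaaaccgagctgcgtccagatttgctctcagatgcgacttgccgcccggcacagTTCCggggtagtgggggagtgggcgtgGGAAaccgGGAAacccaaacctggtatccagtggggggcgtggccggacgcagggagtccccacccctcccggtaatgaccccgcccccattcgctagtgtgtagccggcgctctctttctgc
Tek: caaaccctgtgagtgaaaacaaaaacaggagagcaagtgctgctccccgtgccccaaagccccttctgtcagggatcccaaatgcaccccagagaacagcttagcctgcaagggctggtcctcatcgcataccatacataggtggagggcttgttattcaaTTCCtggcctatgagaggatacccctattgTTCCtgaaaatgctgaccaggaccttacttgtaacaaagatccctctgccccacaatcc
In windows of 250 bases, the core occurred 4 times each for *Flt1*, *Kdr* and *Nrp1*, 2 times for *Tek* and 7 times for *Tie1*. The window of *Nrp1* lay inside the annotated gene and that of *Tie1* mostly so, so that their matches are not counts before the gene. Of all 32851 promoter windows of that length, 93.4% held it at least once, 33.4% at least 4 times and 3.82% at least 7 times. A search for TGANTCA, the AP-1 motif, on both strands found no match in the windows of these 5 genes, and 6.75% of all windows held one. A promoter window was listed for 8 of the 10 genes, and the 2 others were *Angpt1* and *Angpt2*.

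All 5 receptor genes had their highest level in endothelial-like cells, where 8.24% of the 12912 genes with at least 200 UMIs had theirs. The count was 4 when cells were called without a cut on their UMIs or clustered at a resolution of 1.2. In both runs *Nrp1* was highest in perivascular macrophage-like cells. *Flt1* reached 3974 CPM (3939 to 4009) in endothelial-like cells and was found in 99.8% of them. *Kdr* reached 392 CPM (381 to 404) and *Nrp1* 235 CPM (227 to 244). *Tek* stood at 226 CPM (218 to 235) and *Tie1* at 185 CPM (177 to 193). The share of all UMIs that fell in endothelial-like cells was 94.9% for *Flt1*, 84.9% for *Kdr*, 96.0% for *Tek* and 95.6% for *Tie1*, against 38.4% for *Nrp1*. *Flt1*, *Tek* and *Tie1* were thus nearly all endothelial by count, whereas most *Nrp1* lay elsewhere. *Kdr* was mostly endothelial, with 7.83% of its UMIs in microglia-like cells.

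**Figure D1:**
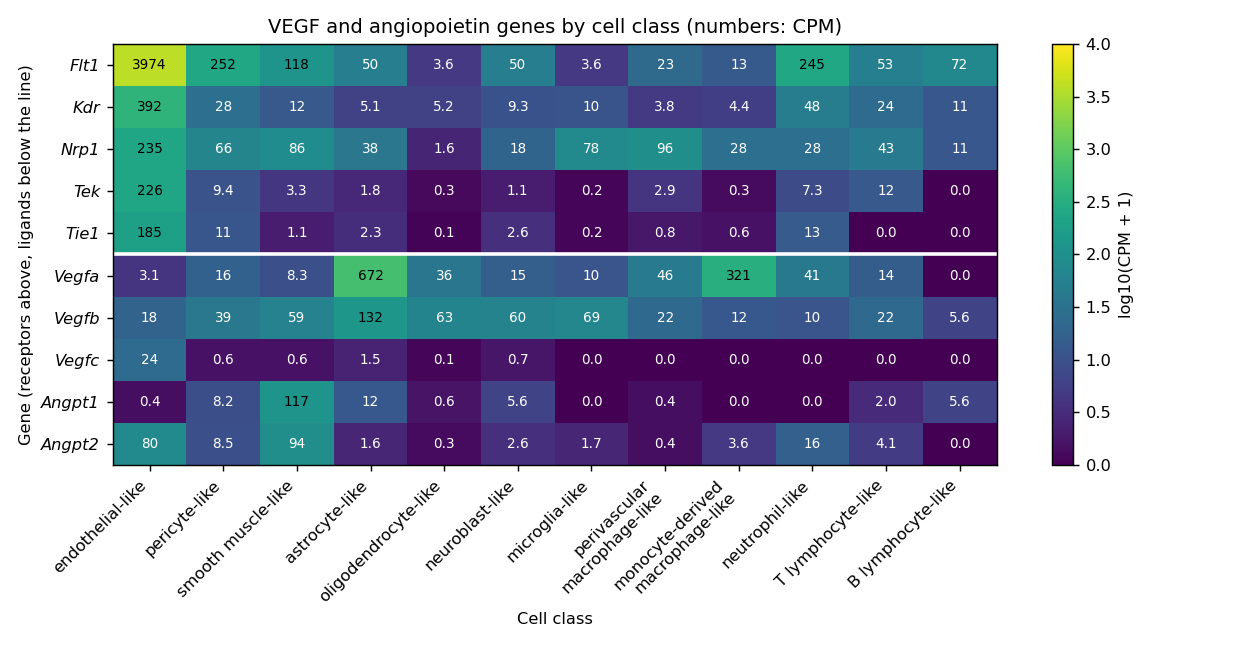
Levels of the 5 receptor and 5 ligand genes in the 12 ranked cell classes; colour gives log10(CPM + 1) and the number in each cell the CPM. The receptor genes peak in endothelial-like cells, *Flt1* at 3974 CPM, while *Vegfa* peaks in astrocyte-like cells at 672 CPM and *Angpt1* in smooth muscle-like cells at 117 CPM.

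At least 1 of the 5 receptor genes was detected in 2742 of the 2745 endothelial-like cells (99.9%). *Flt1* and *Kdr* were found together in 67.2% of the cells, *Tek* and *Tie1* in 32.3%, and all 5 genes in 13.6%. These shares depend on depth, which was a median of 4039 UMIs in this class. When each cell was thinned to 1000 UMIs, *Flt1* was still expected in 94.4% of the cells, but *Kdr* in 30.5%, *Tek* in 20.8%, *Nrp1* in 19.9% and *Tie1* in 17.7%.

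*Flt1*, the VEGFA and VEGFB receptor, stood 15.7 times (14.7 to 16.9) higher in endothelial-like cells than in pericyte-like cells, the next class at 252 CPM. Pericyte-like and neutrophil-like cells (245 CPM) did not differ beyond counting error. In neutrophil-like cells the 169 *Flt1* UMIs came from 12 of 179 cells, and 112 UMIs of *Cldn5* and 25 of *Ptprb*, both endothelial genes, were counted there too. Microglia-like and oligodendrocyte-like cells had 3.64 and 3.58 CPM. Barcodes with 1 to 50 UMIs, which hold free RNA, had 142 CPM of *Flt1*.

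*Kdr*, the main signalling receptor of VEGFA, was next highest in neutrophil-like cells at 47.9 CPM, which was 8.19 times (5.83 to 11.9) lower than in endothelial-like cells. A low level in microglia-like cells was seen in every library, between 7.80 and 11.8 CPM. Free RNA held more *Kdr* in each library, between 13.9 and 27.1 CPM, and its part in this low level was not tested. In microglia-like cells 449 *Kdr* UMIs stood beside 164 *Flt1* UMIs, or 0.365 (0.304 to 0.438) *Flt1* UMIs per *Kdr* UMI. In endothelial-like cells the same quotient was 10.1 (9.83 to 10.4), and in free RNA 2280 *Flt1* UMIs stood beside 299 of *Kdr*. Oligodendrocyte-like cells also held fewer *Flt1* than *Kdr* UMIs (91 and 133, a quotient of 0.684, 0.518 to 0.900). *Kdr* was detected in 4.87% (4.41 to 5.36) of microglia-like cells, and no cell of that class had more than 3 UMIs.

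*Nrp1*, the co-receptor, was the most widely spread of the receptor genes by its share of UMIs. It stood 2.46 times (2.15 to 2.83) higher in endothelial-like cells than in perivascular macrophage-like cells at 95.6 CPM. This class, smooth muscle-like cells (85.7 CPM) and microglia-like cells (78.4 CPM) followed each other within counting error. Because of their number, microglia-like cells held 46.4% of all *Nrp1* UMIs. Oligodendrocyte-like cells had 1.61 CPM. In perivascular macrophage-like cells *Nrp1* was 196, 102, 227 and 44.3 CPM in libraries 3 to 6, and in library 5 it lay above the 203 CPM of the endothelial-like cells, with intervals that overlapped. When cells were called without a cut on their UMIs or clustered at a resolution of 1.2, the perivascular macrophage-like class passed the endothelial-like class, with log2 ratios of -0.0495 and -0.0399 in place of 1.30. The class was not the same in these runs. A cluster of 140 and 135 cells, with *Ccr7* and *Cd209a* among its leading genes, was left unnamed. The name was kept by 179 and 124 cells led by *Mrc1*, in place of 259 cells. The cause of the turn was not tested. Without library 6 the log2 ratio was 0.66.

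*Tek* and *Tie1*, the angiopoietin receptor and its partner, had no second class above 13.1 CPM. *Tek* was 18.5 times (8.48 to 50.4) higher in endothelial-like than in T lymphocyte-like cells, which had 6 UMIs. *Tie1* was 14.2 times (7.44 to 31.0) higher than in neutrophil-like cells, which had 9 UMIs. Its log2 ratio to neutrophil-like cells of 3.82 became 3.15 without library 4 and 4.93 without library 6. The log2 ratio of *Tek* to T lymphocyte-like cells went from 4.21 to 4.82 without library 2, with counts below 3 set to 3. Pericyte-like cells became the next class for *Tie1* without library 6 and for *Tek* without library 2, but these ratios do not refer to them. The free RNA held 12.2 CPM of *Tek* and 11.1 CPM of *Tie1*.

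Of the 5 ligand genes, 3 stood at least 2 times higher in their highest ranked class than in the next. Of the 12912 genes, 25.8% did. The 3 ligand genes were *Vegfa*, *Vegfc* and *Angpt1*, and each had a different class. Without library 3 or library 4 the count was 2, since *Vegfa* then had log2 ratios of 0.90 and 0.67 in place of 1.06, and without library 6 that ratio was 1.92. *Vegfa* was highest in astrocyte-like cells at 672 CPM (653 to 691), 2.09 times (1.96 to 2.23) the 321 CPM of monocyte-derived macrophage-like cells. Astrocyte-like cells were 6.74% of the cells and held 63.6% of the *Vegfa* UMIs, with the gene found in 82.9% of them. The macrophages followed with 14.1% and the oligodendrocyte-like cells, at 36.4 CPM, with 12.0%. Endothelial-like cells had 3.14 CPM of *Vegfa*, so that the class with the receptors held nearly none of this ligand. Perivascular macrophage-like, neutrophil-like and oligodendrocyte-like cells, at 45.7, 40.6 and 36.4 CPM, came next among the ranked classes and did not differ in sequence beyond counting error. The 31 fibroblast-like cells, too few to be ranked, had a higher *Vegfa* level of 132 CPM (85.9 to 193) from 26 UMIs.

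*Vegfb* was spread over most classes. Of the ranked classes it was highest in astrocyte-like cells at 132 CPM, 1.91 times (1.77 to 2.05) the 69.1 CPM of microglia-like cells. This order held in all 6 libraries, but not in both astrocyte-like clusters. Cluster 7, of 746 cells, had 159 CPM (149 to 171). Cluster 10, of 424 cells, had 52.8 CPM (42.9 to 64.2), below the microglia-like level. Among the ranked classes, oligodendrocyte-like (63.4 CPM), neuroblast-like (60.3 CPM) and smooth muscle-like (59.0 CPM) cells came after microglia-like cells. They did not differ from each other in sequence beyond counting error. Microglia-like cells held 48.0% of the UMIs of *Vegfb*, and endothelial-like cells had 18.1 CPM. Of the classes too small to be ranked, the 22 choroid plexus-like cells had 135 CPM (85.4 to 202) from 23 UMIs. The 31 fibroblast-like cells had 80.9 CPM (46.3 to 131) from 16 UMIs.

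*Vegfc*, a ligand best known from lymphatic vessels, was mostly endothelial by count in these data. It had 293 of its 319 UMIs (91.8%) in endothelial-like cells, at 23.6 CPM (21.0 to 26.5). This was 15.7 times (8.62 to 31.7) the level in astrocyte-like cells, the next ranked class. On the log2 scale this ratio was 4.67 in place of 3.97 without library 3. The 31 fibroblast-like cells, too few to be ranked, had a *Vegfc* level of 25.3 CPM (8.21 to 59.0) from 5 UMIs. No UMI was found in the 374 monocyte-derived macrophage-like cells, where 0 UMIs allow up to 0.802% of cells with a UMI (3 counts of the cells) and say nothing on cells that express the gene below detection. The endothelial values were 25.7, 25.9, 29.0, 20.004, 29.2 and 14.1 CPM in libraries 1 to 6, so that library 6 was lowest.

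*Angpt1*, the ligand that activates TIE2, was a smooth muscle gene by level. It stood at 117 CPM (102 to 134) in smooth muscle-like cells, 10.1 times (7.79 to 13.1) the 11.7 CPM of astrocyte-like cells, and was detected in 49.6% of the smooth muscle-like cells. Pericyte-like cells had 8.24 CPM from 28 UMIs, which did not differ beyond counting error from astrocyte-like cells. The 31 fibroblast-like cells, too few to be ranked, had 20.2 CPM (5.51 to 51.8) from 4 UMIs. Endothelial-like cells had 5 UMIs in 2745 cells. The 4 libraries with at least 20 smooth muscle-like cells, numbers 3 to 6, had 117, 124, 127 and 106 CPM, with no library apart from the others.

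*Angpt2*, the ligand that often opposes ANGPT1, had a pair of classes at the top when the libraries were pooled. Smooth muscle-like cells had 94.0 CPM (80.4 to 109) and endothelial-like cells 79.8 CPM (74.9 to 85.0), a ratio of 1.18 (0.995 to 1.39) that is within counting error. The order turned without library 3 or library 5 and at a resolution of 0.4, with log2 ratios of -0.077, -0.055 and -0.081 in place of 0.24. In number, 990 of the 1332 UMIs (74.3%) were endothelial. The smooth muscle values were 86.6, 92.1, 82.9 and 119 CPM in libraries 3 to 6 and overlapped in their intervals. The endothelial level was lower than the smooth muscle level in libraries 3 and 5, with 4.87 CPM in library 5. It was higher in libraries 4 and 6, with 207 CPM in library 4 and overlapping intervals in library 6. The pooled levels were thus close although the order of both classes differed between libraries. For each UMI of *Angpt1* there were 0.801 (0.650 to 0.985) UMIs of *Angpt2* in smooth muscle-like cells, 1.04 (0.595 to 1.81) in pericyte-like cells and 198 (84.6 to 611) in endothelial-like cells. *Angpt2* lies at chr8:18690263-18741562 of GRCm38 on the minus strand, inside *Mcph1* on the other strand. *Mcph1* had 8.55 CPM in endothelial-like cells, and between 3.43 and 10.5 CPM in the single libraries. *Angpt1* likewise overlaps *Gm17473* on the other strand, which had 16 UMIs (8.90 CPM) in smooth muscle-like cells. Whether the counting used strand is not stated in the sources used here.

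The endothelial level of *Angpt2* differed between libraries more than that of the other 7 genes of the set with at least 200 UMIs in these cells. In libraries 1 to 6 it was 17.2 (8.22 to 31.5), 42.7 (28.4 to 61.8), 17.3 (13.1 to 22.5), 207 (187 to 227), 4.87 (2.66 to 8.18) and 154 (140 to 168) CPM. Libraries 4 and 6 were high and did not overlap with the other 4, of which library 5 was lowest. The highest library was 42.4 times (25.0 to 78.2) the lowest, which placed *Angpt2* at rank 22 of 6943 genes by this ratio, and without library 5 the highest was 12.0 times the lowest. Over those genes the median ratio was 1.84 and 39.4% reached 2. The markers of microglia summed to between 117 and 1814 CPM in the endothelial-like cells of the 6 libraries, with 960 in library 4 and 140 in library 6. The markers of neutrophils, of which 1 to 4 of 6 were at 0 in a library, summed to 37.0 and 43.5 CPM in libraries 4 and 6 and to between 5.57 and 25.9 CPM in the others, and those of astrocytes to 339 and 206 CPM against 87.0 to 152 CPM. The part of both in the result was not tested.

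**Figure D2:**
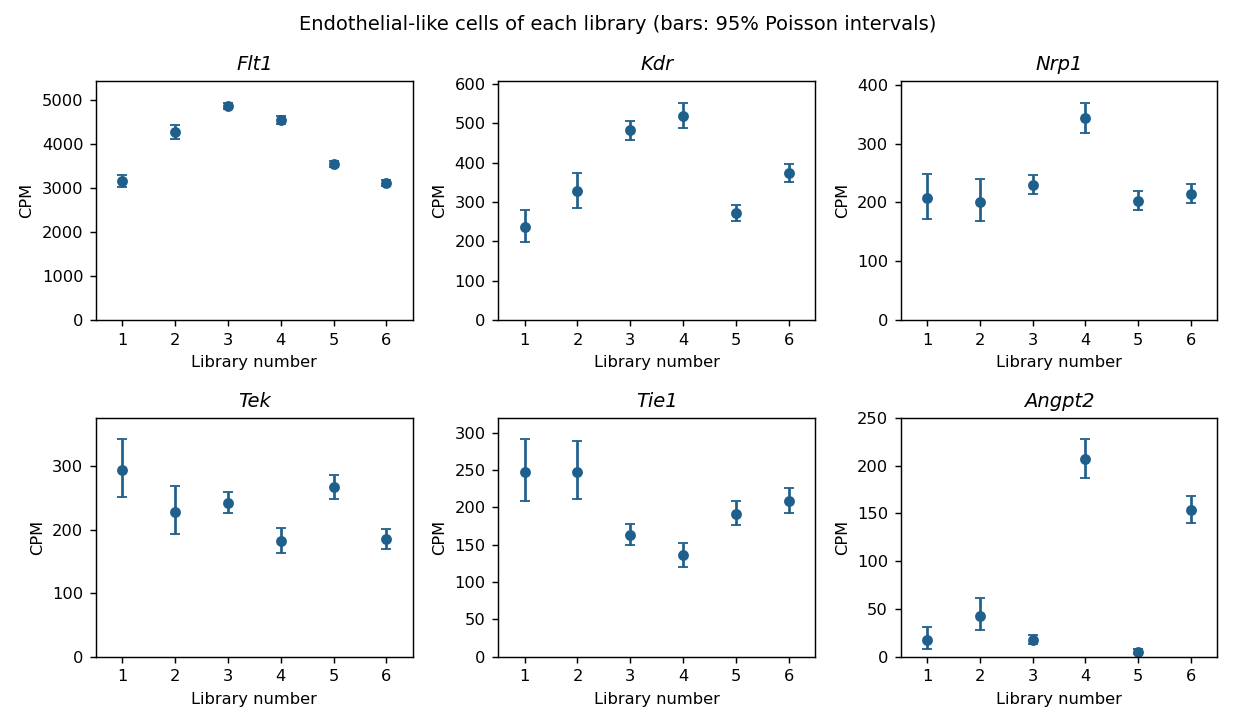
Levels (CPM) of *Flt1*, *Kdr*, *Nrp1*, *Tek*, *Tie1* and *Angpt2* in the endothelial-like cells of libraries 1 to 6; points are sums over cells and bars 95% Poisson intervals. *Angpt2* is high in libraries 4 and 6 (207 and 154 CPM), where *Tek* is lowest (183 and 185 CPM). The *Tek* ratio between libraries, 1.62, is below the median of 1.84 over all tested genes.

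*Tek*, the receptor of ANGPT2, was lowest in the same libraries 4 and 6. Its endothelial levels were 295 (253 to 343), 229 (194 to 269), 243 (226 to 260), 183 (164 to 202), 267 (249 to 287) and 185 (170 to 201) CPM in libraries 1 to 6. The intervals of libraries 4 and 6 overlapped with that of library 2. The highest library was 1.62 times the lowest, rank 4716 of 6943 genes by this ratio and below the median ratio of 1.84. There were 1.13 and 0.830 UMIs of *Angpt2* per UMI of *Tek* in libraries 4 and 6, against 0.0182 to 0.187 in the others. *Tie1* ran from 136 CPM in library 4 to 247 CPM in libraries 1 and 2, with 209 CPM in library 6, so that it was low in library 4 without being low in library 6.

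Among the VEGF receptor genes, *Kdr* was 237, 327, 481, 519, 271 and 373 CPM in the endothelial-like cells of libraries 1 to 6, a ratio of 2.19 (1.83 to 2.64) between library 4 and library 1. *Flt1* ranged from 3124 CPM in library 6 to 4870 CPM in library 3, a ratio of 1.56. *Nrp1* was 343 CPM in library 4 and between 201 and 230 CPM in the others. As a result, libraries 4 and 6 had the fewest *Flt1* UMIs per *Kdr* UMI, 8.77 (8.22 to 9.36) and 8.38 (7.88 to 8.91), with 10.1 in library 3 and 13.1 to 13.4 in the rest. Of the 8 genes of the set with at least 200 UMIs in endothelial-like cells, 4 reached a ratio of 2 between libraries, *Vegfb*, *Vegfc*, *Kdr* and *Angpt2*, a share not far from the 39.4% of all genes. In libraries 3 and 4, where *Kdr* was highest, mitochondrial genes summed to 17318 and 14627 CPM in the endothelial-like cells. They summed to between 28351 and 33250 CPM in the others, and the part of this difference in the *Kdr* levels was not tested.

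Clustering the endothelial-like cells again, with the set left out of the variable genes, gave 13 subclusters, of which 11 had at least 50 cells and no majority of doublets. In them 7 of the 7 tested genes of the set differed at least 2 times between the highest and the lowest subcluster, as did 74.1% of 6604 genes. Most *Angpt2* lay in a pair of subclusters. Subcluster 3 had 296 CPM (271 to 323) and *Apln*, *Pgf* and *Ackr1* among its leading genes, and 307 of its 323 cells came from library 6. Subcluster 6 had 411 CPM (368 to 458) and *Plaur*, *Adm* and *Adamts4* among its leading genes, and 165 of its 191 cells came from library 4. *Angpt2* itself was among the leading genes of both. The other 9 subclusters had between 4.42 and 59.3 CPM. Of the 990 endothelial *Angpt2* UMIs, 507 lay in subcluster 3 and 325 in subcluster 6. The 6 markers of astrocytes summed to 288 and 592 CPM in subclusters 3 and 6 and to between 44.8 and 172 CPM in the other 9, which was likewise not tested.

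**Figure D3:**
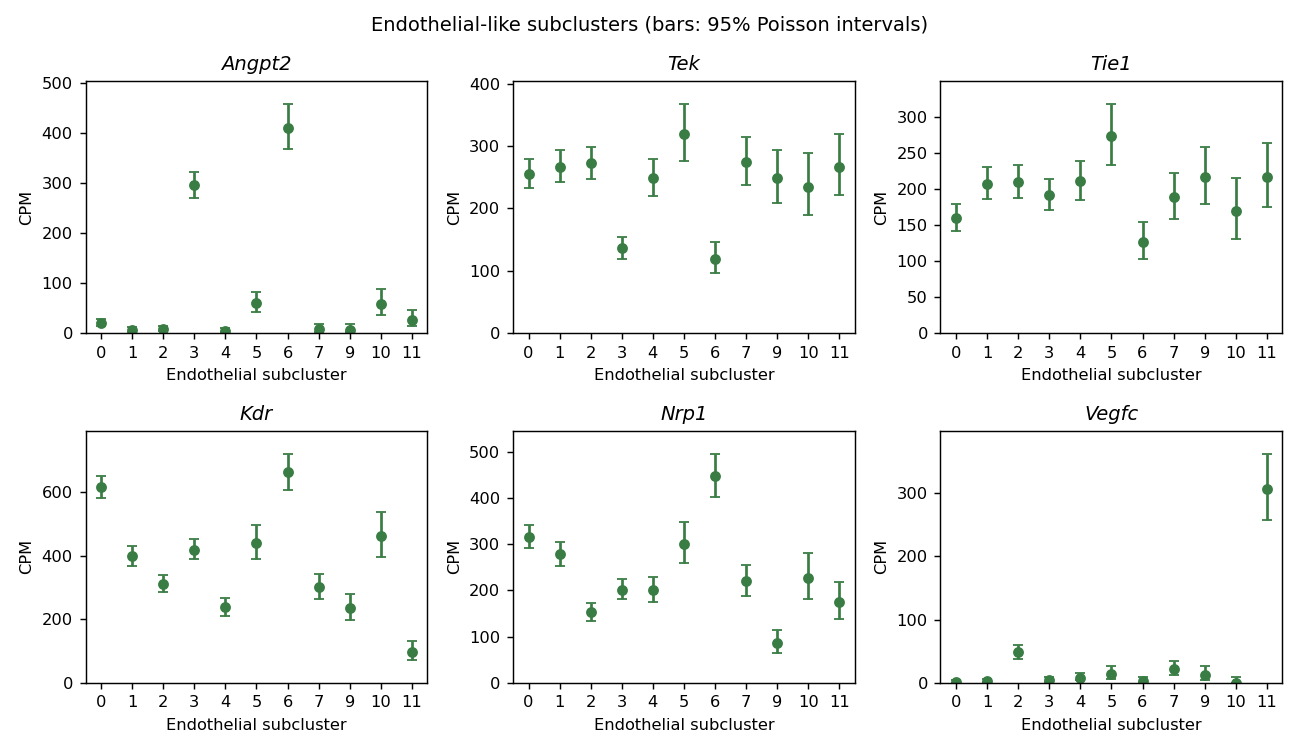
Levels (CPM) of *Angpt2*, *Tek*, *Tie1*, *Kdr*, *Nrp1* and *Vegfc* in the 11 endothelial-like subclusters used, with 95% Poisson intervals. Subclusters 3 and 6 stand apart with high *Angpt2* (296 and 411 CPM) and low *Tek* (136 and 119 CPM), and subcluster 11 with high *Vegfc* (307 CPM) and low *Kdr* (97.2 CPM).

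Outside subclusters 3 and 6 the endothelial *Angpt2* level was 17.2, 43.0, 13.9, 39.7, 4.91 and 8.65 CPM in libraries 1 to 6, with library 2 highest and library 5 lowest. *Tek* was 136 and 119 CPM in subclusters 3 and 6, below the median of 255 CPM over the 11 subclusters and below the other 9. Outside both it was 224 and 243 CPM in libraries 4 and 6, against 229 to 295 CPM in the others. *Ptprb*, the phosphatase that opposes TIE2, was low in the same subclusters, with 563 and 586 CPM against a median of 1226 CPM. The 7 general endothelial markers summed to 10787 and 12797 CPM there, against 12337 to 19062 CPM in the other 9. *Tie1* was lowest in subcluster 6 at 127 CPM and was 191 CPM in subcluster 3, near its median of 208 CPM. Since subclusters 3 and 6 were singled out for their *Angpt2* and came mostly from libraries 6 and 4, the *Angpt2* values without them are a description of where the UMIs lay.

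The VEGF receptor genes parted subclusters 3 and 6. In subcluster 6 *Kdr* (662 CPM) and *Nrp1* (447 CPM) were at their highest, and *Flt1* was 5015 CPM. In subcluster 3 *Kdr* was 419 CPM, *Nrp1* 201 CPM and *Flt1* 2521 CPM, close to the lowest value of 2516 CPM in subcluster 9, a venous endothelial-like subcluster. That subcluster also had the lowest *Nrp1*, at 85.9 CPM, and an *Angpt2* level of 7.17 CPM from 4 UMIs.

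*Vegfc* was highest in arterial cells. Subcluster 11, arterial endothelial-like and led by *Mgp*, *Clu* and *Gkn3*, had 307 CPM from 139 UMIs in 74 cells, and *Vegfc* was among its leading genes. Subcluster 2, also arterial endothelial-like and led by *Alpl*, *Sema3g* and *Cdkn1c*, had 48.0 CPM from 77 UMIs. The other 9 subclusters had at most 21.4 CPM. Subcluster 11 had the lowest *Kdr* of all, at 97.2 CPM, and subcluster 2 had 312 CPM, both below the median of 398 CPM. In the parent cluster that held all cells of subcluster 11, *Vegfc* was between 125 and 188 CPM in each of the 5 libraries with at least 20 of its cells, with intervals that overlapped.

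*Vegfa* in astrocyte-like cells also differed between libraries. It was 400 (360 to 442), 488 (438 to 541), 778 (744 to 812), 836 (798 to 876), 515 (421 to 624) and 340 (296 to 388) CPM in libraries 1 to 6. Libraries 3 and 4 were high and did not overlap with the other 4. The highest was 2.46 times (2.14 to 2.85) the lowest, and 43.5% of the 5585 genes tested in astrocyte-like cells reached 2. Libraries 3 and 4 were the highest in both astrocyte-like clusters. In cluster 7 they had 660 and 719 CPM, against 299 to 431 CPM in the other libraries with at least 20 cells, and in cluster 10 they had 1110 and 1299 CPM against 441 to 665 CPM. The markers of microglia in the astrocyte-like cells summed to 1380 CPM in library 3 and 318 CPM in library 4, and to between 44.6 and 695 CPM in the others.

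Oligodendrocyte-like cells showed the same libraries on top. Their *Vegfa* levels were 20.05, 23.1, 55.0, 52.2, 21.5 and 17.5 CPM in libraries 1 to 6, a ratio of 3.13 (2.25 to 4.47) where 21.4% of 8271 genes reached 2. The free RNA, at 63.0, 69.3, 138, 173, 62.6 and 77.4 CPM, was high in libraries 3 and 4 as well, and its part in these low levels was not tested. In microglia-like cells *Vegfa* was 22.6 CPM (20.1 to 25.3) in library 4 and between 1.89 and 7.38 CPM in the others, below the free RNA in each library, a ratio of 11.9 (6.20 to 26.4) where 38.1% of 9656 genes reached 2. Monocyte-derived macrophage-like cells were 121 in library 4 and 235 in library 6, with at most 11 in any other library. Their *Vegfa* was 200 CPM in library 4 and 395 CPM in library 6, and in library 6 it lay above the 340 CPM of the astrocyte-like cells. Leaving out library 4 or library 6 moved the ratio of astrocyte-like to macrophage-like cells from 1.06 to 0.67 or 1.92 on the log2 scale.

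**Figure D4:**
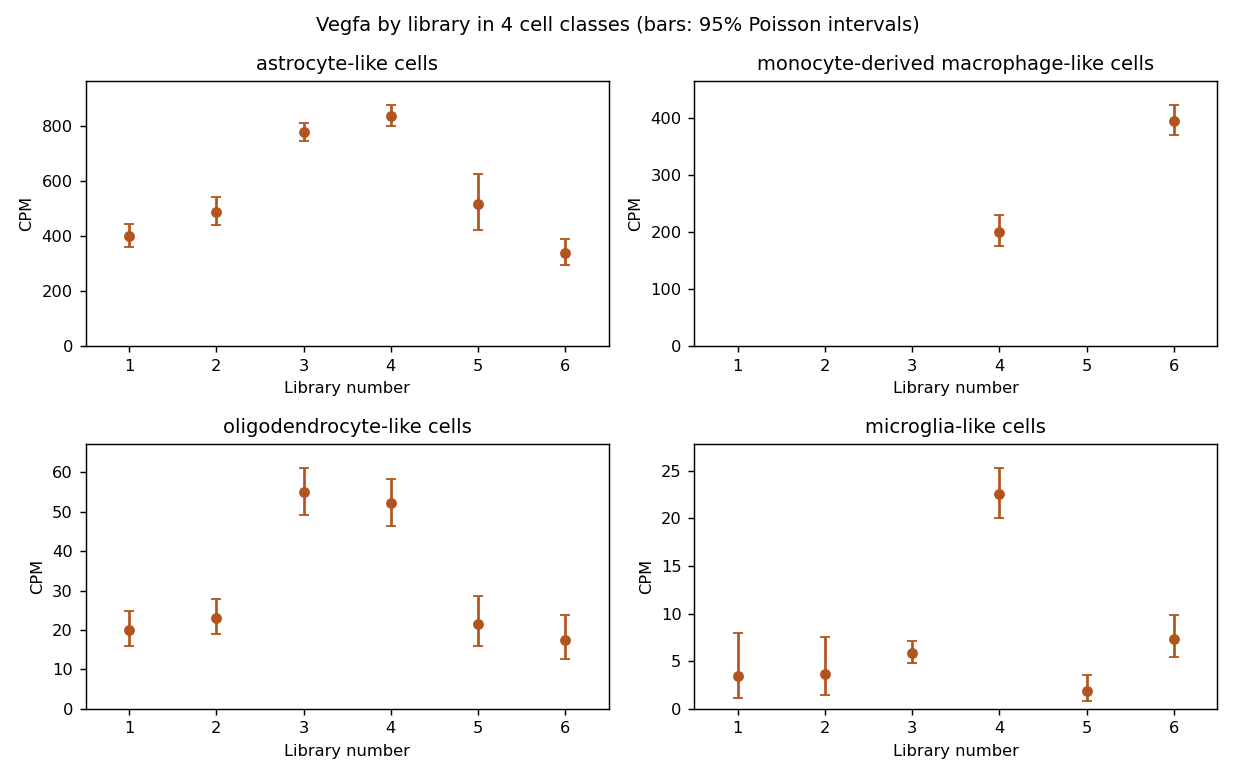
*Vegfa* level (CPM) by library in astrocyte-like, monocyte-derived macrophage-like, oligodendrocyte-like and microglia-like cells; bars are 95% Poisson intervals and libraries with fewer than 20 cells of a class are left out. Astrocyte-like and oligodendrocyte-like cells are high in libraries 3 and 4, at 778 and 836 CPM and at 55.0 and 52.2 CPM, and the macrophages are higher in library 6 (395 CPM) than in library 4 (200 CPM).

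In each gene's own highest class, 9 of the 10 genes had at least 200 UMIs, and 3 of them differed at least 2 times between libraries, *Vegfa*, *Kdr* and *Vegfc*. *Angpt2*, with 169 UMIs in smooth muscle-like cells, was not tested in this count, although its endothelial level differed 42.4 times. Of 7641 genes tested in this way, 32.6% did, so that the share of the set was near the background.

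The pericyte-like and smooth muscle-like cells, together called mural cells, were clustered again and gave 10 subclusters. *Flt1* was found in all of them. Subcluster 9, with 32 cells of which 37.5% were called doublets, had 1979 CPM of *Flt1* and 542 CPM of the endothelial gene *Ptprb*, and subcluster 7, in which 63.3% were doublets, carried microglial genes. Without both, the 807 pericyte-like cells had 148 CPM (134 to 163) of *Flt1* from 421 UMIs, in place of 252 CPM, beside 6 UMIs of *Ptprb*, 3 of *Pecam1* and 2 of *Cdh5*. In endothelial-like cells there were 3.64 *Flt1* UMIs for each UMI of *Ptprb*. The 240 smooth muscle-like cells had 35.2 CPM (26.7 to 45.6) of *Flt1*. The free RNA held 142 CPM of *Flt1* and 46.1 CPM of *Ptprb*, and the same pericyte-like cells had 2.11 CPM of *Ptprb*. *Kdr* was 12.3 CPM in the same pericyte-like cells, and *Nrp1* 58.4 CPM.

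Subcluster 6 of the mural cells, led by *Il11*, *Saa3* and *Ednrb*, had the highest *Flt1* of the subclusters with at least 50 cells and no majority of doublets, at 239 CPM from 76 UMIs in 58 cells. It held 25 cells of library 4 and 33 of library 6. Neither *Ptprb*, *Pecam1* nor *Cdh5* had a UMI there, and *Cldn5* had 2. *Nrp1* was at its lowest in this subcluster, at 9.45 CPM from 3 UMIs, while it was 225 CPM in subcluster 5, in which *Rgs5* was 5194 CPM and *Acta2* 2119 CPM. *Flt1* and *Nrp1* were the 2 genes of the set with at least 200 UMIs over these 7 subclusters, and both differed at least 2 times, as did 76.5% of 3738 genes.

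**Figure D5:**
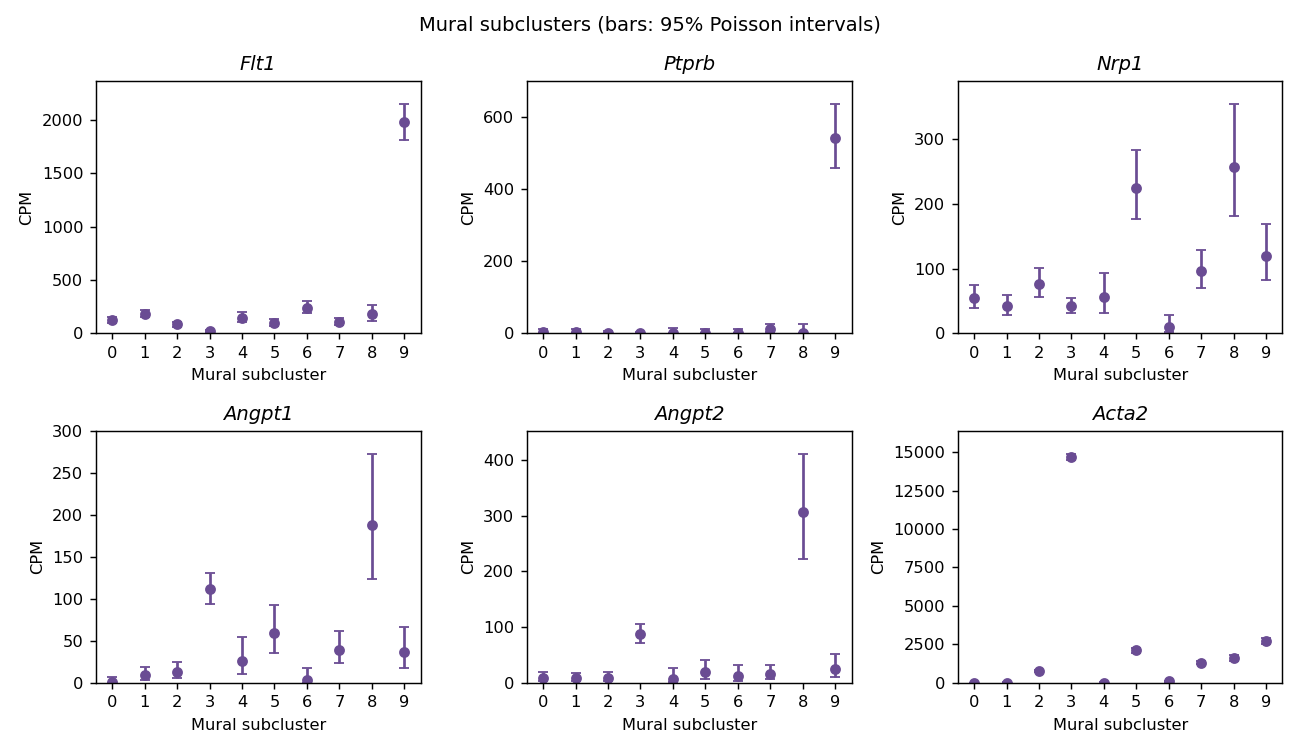
Levels (CPM) of *Flt1*, the endothelial gene *Ptprb*, *Nrp1*, *Angpt1*, *Angpt2* and the contractile gene *Acta2* in the 10 mural subclusters, with 95% Poisson intervals. Subcluster 9 carries endothelial *Ptprb* (542 CPM), whereas *Angpt1* and *Angpt2* are high in subclusters 3 (111 and 86.9 CPM) and 8 (188 and 306 CPM).

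Both angiopoietins were highest in mural subclusters 8 and 3. Subcluster 3, with 14689 CPM of *Acta2*, had 111 CPM of *Angpt1* and 86.9 CPM of *Angpt2*. Subcluster 8, with 35 cells that carried fibroblast genes and were led by *Ccl19* and *Col3a1*, had 188 CPM of *Angpt1* (27 UMIs) and 306 CPM of *Angpt2* (44 UMIs). Its cells came from all 6 libraries, 12 of them from library 3. Without it, an alternative chosen after seeing the data, the smooth muscle-like level was 111 CPM for *Angpt1* and 75.4 CPM for *Angpt2*, the latter below the endothelial 79.8 CPM. The subclusters with the most *Kcnj8*, a pericyte gene, numbers 0 and 1, had 1.34 and 9.03 CPM of *Angpt1* and 9.39 and 7.74 CPM of *Angpt2*, from at most 7 UMIs each. By the sum of the 7 pericyte markers, subclusters 2 and 4, at 30337 and 30862 CPM, were close to subcluster 1 at 31279 CPM. Subcluster 0 had the lowest *Angpt1* of the 7 subclusters with at least 50 cells and no majority of doublets. The median over these was 12.7 CPM. *Tek* and *Tie1* had no UMI in subclusters 3, 6 and 8.

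For 9 genes of the set, the genes with the most similar levels were named by the Pearson correlation of log2(CPM + 10) over the 12 ranked classes. The classes share libraries and depth, and the values are given as a description. *Tek* was closest to *She* (r = 0.994) and *Sox17* (0.988), and *Tie1* to *Rassf9* (0.995) and *Mmrn2* (0.991). *Flt1* was closest to the chemokine gene *Cxcl12* (0.980) and *Kdr* to *Cdh5* (0.978), which encodes VE-cadherin. *Vegfc* was closest to *Gm609* (0.995), and *Nrp1*, with its wider spread, to *Fcgrt* (0.925). *Vegfa* was closest to *Pdpn* (0.910), which encodes podoplanin, *Vegfb* to *Cul9* (0.965) and *Angpt2* to *Casp12* (0.971).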

How the data were processed

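Live brain cells depleted of neurons were profiled with the 10x 3′ chemistry. The deposited matrix holds UMI counts per gene and barcode, which the authors made with Cell Ranger (5.0 in the processing notes, build mm10) and joined over the libraries with its aggregation step, run to even out sequencing depth. By the methods, the early and the late timepoints were sequenced on different machines. The matrix held 40769280 barcodes and no filter on cells.

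In each library the 3000 barcodes with the most UMIs were taken, and a cell needed 0.1 of their 99th percentile or more, a minimum of 200 detected genes and no more than 10% of its counts from mitochondrial genes. Cells were scaled to 10000, 2000 variable genes without the set were reduced to 30 components, and a graph of 20 neighbours was cut with the Leiden method at a resolution of 0.8. A class was named where at least 3 of its markers stood at least 2 times above the median cluster. The mean of its markers also had to lead that of the next class by at least 1 on the log2 scale. This lead was not asked of endothelial subtypes. When all called cells were clustered, clusters with more than 50% doublets were left unnamed. The erythroid list was left out of the naming after free hemoglobin RNA had been seen. Doublets were scored against simulated ones, kept in the main values and left out as an alternative. A class or subcluster was ranked from 50 cells, a gene was tested from 200 UMIs, and library values needed 20 cells. With 1 library per group and no map from library numbers to groups, no p-value was computed, and intervals cover counting error only. Library totals over all barcodes ranged from 12427757 to 40793772 UMIs. The scripts were tested on simulated data. All 10 genes, other genes of their pathways and, of the 3 genes most like each, the first or the first 2 were named, and the one for *Angpt1* is not reported here. The genes, lists and markers were chosen with earlier results of these data known. The alternatives were other cell filters, doublets left out, the mean of each cell's own CPM, no minimum count, other resolutions and each library left out.

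Python 3.11.15, numpy 2.4.6, scipy 1.17.1, pandas 2.3.3, scikit-learn 1.9.0, igraph 0.11.9, leidenalg 0.10.2 and matplotlib 3.10.9 were used.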

Additional observations from a re-analysis of the deposited data

How the results depend on the processing

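Of 58 repeats of the 5 counts under the alternatives, 56 stayed within 1.5 times the main count. This band is wide for counts so small. It took in a receptor count of 4 in place of 5 and a ligand count of 2 in place of 3. An endothelial subcluster count of 5 in place of 7 also lay within it. The count of genes of the set that differed between mural subclusters was 2, became 9 with no minimum count, and lay between 1 and 2 when each library was left out. *Nrp1* turned from endothelial-like to perivascular macrophage-like cells with the features and mitochondrial filters alone (log2 ratio -0.0495) and at a resolution of 1.2 (-0.0399). In both runs a cluster with *Ccr7* and *Cd209a* among its leading genes was left unnamed, and fewer cells were named perivascular macrophage-like. The cause of the turn was not tested. With the mean of each cell's own CPM the log2 ratio of *Kdr* rose from 3.03 to 3.91. That of *Flt1* to pericyte-like cells rose from 3.98 to 4.51 without doublets and to 4.75 without mural subclusters 7 and 9. In both, neutrophil-like cells became the next class, to which these ratios do not refer. Leaving out mural subclusters 7 and 9 is an alternative chosen after seeing the data, as were the next ones. The 42.4-fold range of endothelial *Angpt2* over libraries fell to 12.0 without library 5 and to 8.29 without cluster 9, which held most cells of subclusters 3 and 6. *Angpt2* was higher in endothelial-like than in smooth muscle-like cells at a resolution of 0.4 (-0.081), without library 3 or 5 and without mural subcluster 8 (-0.082). The range of astrocyte *Vegfa* was 2.09 without library 6. *Angpt1*, *Flt1*, *Kdr*, *Tek*, *Tie1*, *Vegfa*, *Vegfb* and *Vegfc* had the same highest class under each alternative run. No paired analysis was possible because the library numbers are mapped to no group. Genes with few UMIs, such as *Vegfc* with 319, are limited by depth.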

Other observations

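*Ptprb*, the phosphatase that acts on TIE2, was endothelial at 1091 CPM, 30.1 times (20.4 to 46.5) the next class, and *Flt4*, the VEGFC receptor, at 76.4 CPM, 8.78 times (4.02 to 24.0) the next. *Pgf*, the ligand placental growth factor that binds FLT1, was highest in smooth muscle-like cells at 161 CPM, 4.55 times (3.91 to 5.29) its endothelial level of 35.3 CPM. *Nrp2*, the second neuropilin, was highest of the ranked classes in microglia-like cells at 76.4 CPM. The 31 unranked fibroblast-like cells had 80.9 CPM (46.3 to 131) of it from 16 UMIs. Of the microglia-like clusters, numbers 5 and 21 had 162 and 96.0 CPM of *Nrp2*. Clusters 0, 1 and 2 had 51.5, 45.5 and 51.7 CPM, below the 64.9 CPM of monocyte-derived macrophage-like cells. *Foxo1*, a factor that TIE2 signalling restrains, did not differ beyond counting error between astrocyte-like (101 CPM) and endothelial-like cells (92.9 CPM).

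Of 5 tested genes known from endothelial tip cells, 2 were highest in endothelial-like cells, *Apln* and *Dll4*, while *Plaur* and *Cxcr4* were highest in neutrophil-like and *Mcam* in smooth muscle-like cells. *Apln* was 451 CPM in endothelial-like cluster 9, but 0.976 and 1.40 CPM in endothelial-like clusters 3 and 14. The astrocyte-like clusters 7 and 10, at 54.0 and 52.2 CPM, lay above the latter. Of 7 tested genes known to be induced by hypoxia, 5 were highest of the ranked classes in endothelial-like cells. Among them were *Slc2a1*, the glucose transporter, at 3543 CPM and *Adm*, the peptide adrenomedullin, at 130 CPM. The 31 unranked fibroblast-like cells had 152 CPM (102 to 217) of *Adm* from 30 UMIs. Of 5 genes of hypoxia sensing, *Epas1* and *Egln1* were highest in endothelial-like cells, against 8.24% of all genes. *Egln1*, at 96.7 CPM, did not differ beyond counting error from smooth muscle-like cells at 95.2 CPM.

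In the endothelial-like cells, *Apln*, the peptide apelin, was 0, 0, 1.23, 162, 1.74 and 304 CPM in libraries 1 to 6, and *Pgf* was 0, 0, 0.62, 63.5, 0.70 and 101 CPM. Both were high in libraries 4 and 6, the libraries with high *Angpt2*, but in few cells. *Apln* was found in 7.97% and 20.5% of the endothelial-like cells of libraries 4 and 6, and *Pgf* in 2.59% and 3.76%, with up to 25 and 56 *Pgf* UMIs in 1 cell. *Adm* was 32.6, 140, 41.7, 321, 43.9 and 198 CPM, high in the same libraries and intermediate in library 2. *Plaur*, the urokinase receptor, was 478 CPM in library 4, 343 CPM in library 2 and 119 CPM in library 6. Subclusters 3 and 6 differed in these genes, with *Apln* at 561 and 353 CPM, *Adm* at 337 and 668 CPM, and *Plaur* at 214 and 944 CPM. Other genes known to be induced by hypoxia did not all go the same way. *Slc2a1*, *Ndrg1* and *Bnip3* were lowest in subcluster 3, at 2195, 226 and 32.7 CPM. Their medians over the 11 subclusters were 3697, 700 and 83.2 CPM. *Angptl4*, *Ankrd37* and *Pfkfb3* were highest in subcluster 6, at 225, 200 and 55.7 CPM.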
